A study of Rattus norvegicus with 8 samples.

Results

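To describe how the receptors for chemokines changed in the carotid artery after intimal injury, the mRNA of 9 receptor genes was followed in 8 rat arteries. The 9 genes, taken by name, were Cx3cr1, Ccr1, Ccr2, Cxcr4, Ackr3, Cxcr6, Ccr7, Cxcr5 and Cxcr3. Of the 37209 genes in the count table, 7 carried one of these names, and Ackr3 was listed under its older symbol Cxcr7, which gave 8 genes. Ccr2 was not analysed here. The injured group held 4 left carotid arteries of male Sprague-Dawley rats, dilated with a balloon catheter and harvested 2 weeks later. The control group held 4 undamaged right carotid arteries. The labels do not state the age of the rats or which control artery came from which injured animal, although the right artery is described as a self-control, so the rats that gave the control arteries had been injured on the other side. The labels name isoflurane anaesthesia and no genetic change or drug treatment.

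Chemokines are small secreted proteins that bind receptors of the G protein-coupled type on leukocytes and on cells of the vessel wall. A conventional receptor signals through Gi proteins, opens a calcium response and turns the cell toward the source of the chemokine. An atypical receptor, such as ACKR3 or ACKR4, takes up and removes chemokine without this Gi signal. In injured arteries the family is known for bringing monocytes and lymphocytes into the wall, and CXCL12 with its receptor CXCR4 is known for drawing in progenitor cells.

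The total count was 13470754 to 15276952 per control artery and 11459632 to 16658089 per injured artery. Levels are given as CPM, counts scaled to a common library size with TMM factors, and 3 counts, the upper limit that a count of 0 allows, were 0.168 to 0.246 CPM. This limit covers counting error only. Smooth muscle genes were abundant in all 8 libraries, with a summed level of 17280 to 50150 CPM in the control arteries and 10400 to 16380 CPM in the injured arteries. The extraction text in the labels speaks of brain cortex, whereas the other labels name the carotid artery, and the 6 cortex neuron genes summed to at most 22.7 CPM. Control artery 4 stood apart. Its log2 CPM correlated at 0.83 to 0.852 with the other controls across genes, and its 6 sympathetic neuron genes summed to 6877 CPM against 1.15 to 2.29 CPM in the other controls. Among the injured arteries this sum was 81.0, 1.81, 1034 and 3.85 CPM in replicates 1 to 4. Each receptor below is therefore given with and without control artery 4 where that artery changed the call or moved the value.

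Of the 9 receptors, 3 were called higher after injury (Cx3cr1, Ccr1 and Ccr7), 1 was called lower (Ackr3), and 2 were tested and not called (Cxcr4 and Cxcr5). The remaining 3 were Cxcr6, which had too few control counts for the test, Cxcr3, which had 0 counts in all arteries, and Ccr2. A call required an adjusted p under 0.05 and a fold change above 2 in the quasi-likelihood test of edgeR, with p adjusted by Benjamini-Hochberg over 14359 genes. By the same rule, 8.31% of all genes tested were called higher and 2.57% were called lower. The median log2 fold change was 0.99 over the 6 receptors tested (2.09 for the same 6 without control artery 4) and -0.06 over all genes. Ccr7 reached the test through its injured arteries alone, where it had to be higher. The number called higher and this median therefore describe the receptors with enough counts and not all 9. Without control artery 4, 5 receptors were called higher (Cxcr4 and Cxcr6 in addition) and 1 lower, beside 12.3% and 3.94% of all genes. Ccr7 and Cxcr6 reached that test through their injured arteries alone, where they had to be higher, so nothing is read from the number called. The 8 arteries are bulk tissue, in which fewer cells of a type and less mRNA per cell cannot be told apart. The labels do not say how many animals were used, so p-values measure the spread between these arteries.

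**Figure D1:**
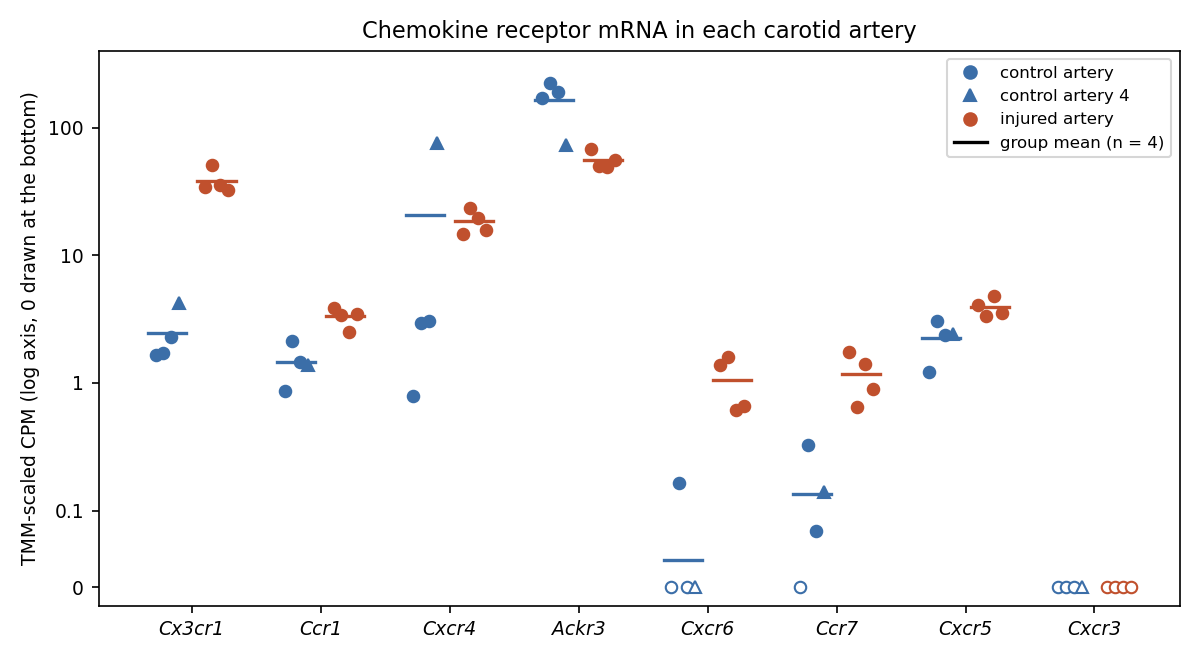
TMM-scaled CPM of each receptor (log axis, with 0 drawn at the bottom) in 4 control arteries (blue, control artery 4 as a triangle) and 4 injured arteries (red), with the group mean as a bar. Cx3cr1 lay at 32.7 to 50.9 CPM after injury and at 1.66 to 4.24 CPM in the controls, Ackr3 moved the other way, and Cxcr4 overlapped through control artery 4 at 75.5 CPM.

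Cx3cr1, the receptor for fractalkine on monocytes, macrophages and natural killer cells, had the largest fold change of the 6 receptors tested. The control arteries had 1.66, 1.72, 2.29 and 4.24 CPM and the injured arteries had 34.3, 50.9, 35.4 and 32.7 CPM. Every injured artery lay well above every control. The mean was 2.48 ± 1.21 CPM (SD, n = 4) in the controls and 38.3 ± 8.47 CPM (SD, n = 4) after injury, and the ratio of the means was 15.5. The log2 fold change was 3.94 (standard error, SE, 0.35, edgeR adjusted p = 0.000456), and Cx3cr1 was called in every alternative fit. The exact permutation test over all 70 splits of the arteries gave p = 0.0286, two-sided, the lowest value possible with 4 arteries in each group. All receptors whose groups did not overlap have this p, and 14.2% of all genes had every injured artery above every control. Its ligand Cx3cl1, a chemokine tethered to endothelial and other cells, was not called, with 51.1 ± 26.5 CPM (SD, n = 4) in the controls and 39.2 ± 15.8 CPM (SD, n = 4) after injury (log2 fold change -0.38, edgeR adjusted p = 0.596).

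Most of the macrophage and pan-leukocyte genes listed were higher in the injured arteries. Of 11 monocyte and macrophage genes, 10 were called higher, and their summed level was 225 to 334 CPM in the controls and 1887 to 2794 CPM after injury. Ptprc, which encodes the pan-leukocyte protein CD45, rose from 7.03 ± 1.71 to 72.1 ± 18.9 CPM (SD, n = 4), with log2 fold change 3.36 (edgeR adjusted p = 0.000281). Ptprc is a single gene of a list of 5 pan-leukocyte genes, of which 3 were called higher, beside 8.31% of all genes. Coro1a was not called (log2 fold change 2.12, edgeR adjusted p = 0.143), nor was Cd48 (log2 fold change -0.08, edgeR adjusted p = 0.631). Of 6 natural killer cell genes listed, only Klrk1, Nkg7 and Prf1 were tested, and each was called higher, beside 8.31% of all genes. These 3 had at most 10 counts in any control and so reached the test mainly through the injured arteries, where they had to be higher. Nothing is therefore read from the number called. Over all 6 genes the summed level was 0.432 to 1.39 CPM in the controls and 10.3 to 25.1 CPM after injury. The part of these cells in the rise of Cx3cr1 was not tested. Within an artery, the log2 ratio of Cx3cr1 to Ptprc was -1.57 ± 0.72 (SD, n = 4) in the controls and -0.89 ± 0.32 (SD, n = 4) after injury, a difference of 0.67 (exact permutation test, p = 0.143, two-sided). The ratio in control artery 4, -0.56, lay inside the injured range. Without that artery the difference was 1.01.

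Ccr1, a receptor for inflammatory CC chemokines on monocytes and neutrophils, also rose, with a smaller fold change. Its counts were 12, 26, 21 and 20 in the control arteries and 65, 47, 45 and 42 in the injured arteries, and the groups did not overlap. The level was 1.46 ± 0.520 CPM (SD, n = 4) in the controls and 3.32 ± 0.569 CPM (SD, n = 4) after injury. The log2 fold change was 1.18 (SE 0.31, edgeR adjusted p = 0.0331), close to the threshold. The call was lost in 5 of 8 fits with a single artery removed (edgeR adjusted p 0.0616 to 0.0893), namely without control artery 1 or 3 or injured artery 1, 2 or 4, and also without a filter on low counts (edgeR adjusted p = 0.0744). Per Ptprc, Ccr1 was lower after injury in all 4 arteries, with a log2 ratio of -2.27 ± 0.32 (SD, n = 4) in the controls and -4.41 ± 0.24 (SD, n = 4) after injury, a difference of -2.13 (exact permutation test, p = 0.0286, two-sided). Across 9 such ratios computed, this p becomes 0.0857 after Benjamini-Hochberg adjustment.

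The ligands of CCR1 examined, Ccl3, Ccl5, Ccl6 and Ccl9, were called higher. Ccl3 had 0, 6, 4 and 0 counts in the controls and 49, 92, 72 and 78 after injury (log2 fold change 4.68, SE 0.87, edgeR adjusted p = 0.00917). Ccl5 had a log2 fold change of 3.02 (edgeR adjusted p = 0.0162) and Ccl6 one of 2.82 (edgeR adjusted p = 0.00245). Ccl9 had 1 count in all controls together and 111, 267, 269 and 404 counts in the injured arteries, a ratio of summed counts of 953 (95% exact interval 171 to 37700, counting error only). Ccl2 and Ccl7, the chemokines that draw monocytes out through CCR2, rose by 1.85 and 2.25 on the log2 scale (edgeR adjusted p = 0.0161 and 0.00364).

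Cxcr4 and Ackr3 bind the same chemokine, CXCL12, CXCR4 as a signalling receptor and ACKR3 as a scavenger. Their promoters, from RefSeq on GRCr8, are shown because both hold the letters TATAAA (in capitals) close to the annotated start, whereas the 2 mRNAs moved differently in these arteries.
Ackr3, chr9:98247288-98247317, plus strand: tcctgcagtgtaTATAAAaggcaagtccgg
Cxcr4, chr13:42634315-42634344, minus strand: cgagcgtgttttTATAAAagtccggttcgg
The letters begin 54 bases before the start of Ackr3 and 44 bases before that of Cxcr4, where a match on the opposite strand overlaps them. Of 33469 promoters of 300 bases (250 before and 50 after the start), 14.2% held TATAAA on either strand, and 2 of the 7 receptors with an entry did. Of the other motif searched, GAGGAA, the core letters bound by the myeloid factor PU.1, 27.6% of promoters and 2 receptors, Ccr1 and Cxcr6, had a match. These 2 receptors lie near each other on chromosome 8, and their matches are shown with the letters in capitals.
Ccr1, chr8:132439494-132439516, minus strand: attttGAGGAAcaggatatgaat
Cxcr6, chr8:132314970-132314999, plus strand: ggacaaacatggGAGGAAcctgttttttag
The matches begin 245 bases before the start of Ccr1 and 224 bases before that of Cxcr6. A match of letters is a description and shows no binding.

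Ackr3 fell after injury. The control arteries had 170, 225, 190 and 73.5 CPM and the injured arteries had 67.7, 50.0, 49.1 and 55.4 CPM. Every injured artery lay below every control, but control artery 4 came close to injured artery 1, and 9.51% of all genes had every injured artery below every control. The mean was 164.5 ± 64.9 CPM (SD, n = 4) in the controls and 55.5 ± 8.58 CPM (SD, n = 4) after injury. The log2 fold change was -1.57 (SE 0.32, edgeR adjusted p = 0.0127), and -1.82 (edgeR adjusted p = 0.000252) without control artery 4.

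The fall of Ackr3 went with that of smooth muscle genes. Of 6 smooth muscle genes, 4 were called lower and none higher, beside 2.57% and 8.31% of all genes. Among those called, Myh11 and Tagln overlapped between the groups through control artery 4. Myh11 had 5013 CPM in that artery and 5060 CPM in injured artery 1, and Tagln had 4072 and 4109 CPM. Within an artery, the log2 ratio of Ackr3 to Myh11, the smooth muscle myosin heavy chain, was -6.21 ± 0.35 (SD, n = 4) in the controls and -6.05 ± 0.19 (SD, n = 4) after injury, a difference of 0.15 (exact permutation test, p = 0.571, two-sided). Control artery 4, with low Ackr3, had a ratio of -6.09, inside the range of the other controls. Against Pdgfra, a receptor of fibroblasts, the log2 ratio was 0.69 ± 0.32 (SD, n = 4) in the controls and -1.18 ± 0.21 (SD, n = 4) after injury, and the groups did not overlap (difference -1.87, exact permutation test, p = 0.0286, two-sided, 0.0857 after adjustment over the 9 ratios). Pdgfra is a single gene of a list of 5 fibroblast genes that went both ways. Dpt was called higher (log2 fold change 2.03, edgeR adjusted p = 0.00257), Pi16 was called lower (log2 fold change -1.56, edgeR adjusted p = 0.0115), and Pdgfra, Col1a1 and Lum were not called. The ratio therefore does not stand for fibroblasts in general. The part of smooth muscle or fibroblast mRNA in the fall of Ackr3 was not tested. The genes with the pattern most like that of Ackr3 over the 8 arteries were Cav1, which encodes the caveolae protein caveolin 1, and Kcnmb1, which encodes a subunit of the calcium-activated potassium channel of smooth muscle. Likeness was measured as the root mean square difference of mean-centred log2 CPM, which was 0.078 for Cav1 and 0.134 for Kcnmb1 against a median of 0.935 over 14358 genes.

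Cxcr4 was not called over all 8 arteries, and this rested on control artery 4. The control arteries had 11, 36, 44 and 1086 counts and the injured arteries had 244, 325, 351 and 194. Control artery 4, at 75.5 CPM, was 24.75 times as high as the highest other control and above every injured artery, while each injured artery lay above the other 3 controls. The mean was 20.6 ± 36.6 CPM (SD, n = 4) in the controls and 18.4 ± 4.06 CPM (SD, n = 4) after injury, and the log2 fold change was -0.16 (SE 1.21, edgeR adjusted p = 0.944, exact permutation p = 0.171, two-sided). DESeq2 gave Cxcr4 no adjusted p. Without control artery 4 the control mean was 2.27 ± 1.28 CPM (SD, n = 3), and Cxcr4 was called higher with a log2 fold change of 3.02 (SE 0.44, edgeR adjusted p = 0.00219).

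In injured arteries 1 to 4 the 6 sympathetic neuron genes summed to 81.0, 1.81, 1034 and 3.85 CPM. Cxcr4 had 14.6, 23.6, 19.7 and 15.9 CPM in the same arteries. The part of sympathetic neuron mRNA in the level of Cxcr4 was not tested. With both control artery 4 and injured artery 3 left out, the log2 fold change of Cxcr4 was 2.99 (edgeR adjusted p = 0.00147). The log2 ratio of Cxcr4 to Ptprc was 3.59 in control artery 4, -2.62 to -1.42 in the other controls and -2.49 to -1.33 after injury, and without control artery 4 the group difference was -0.10. The genes most like Cxcr4 over the 8 arteries were Plxnc1, which encodes a semaphorin receptor, and Rimkla, with differences of 0.414 and 0.415 against a median of 1.94.

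**Figure D2:**
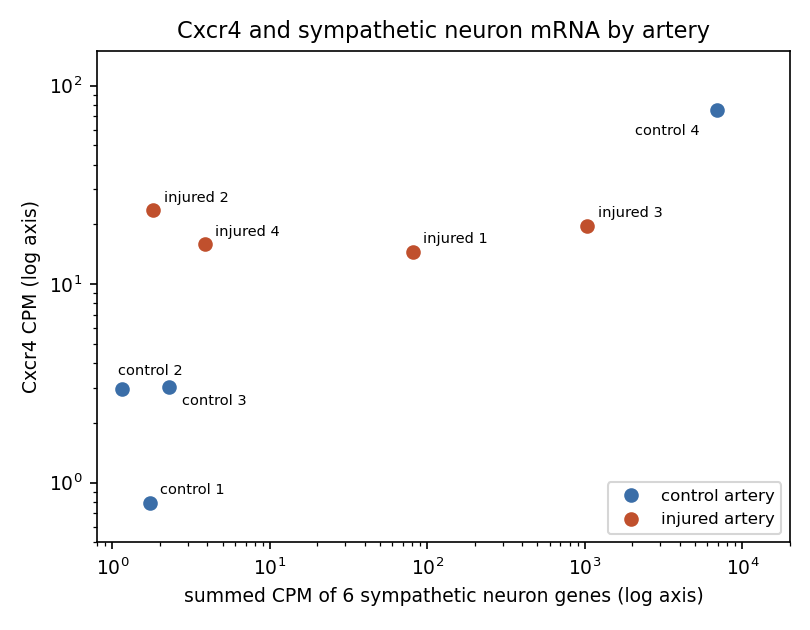
Cxcr4 CPM (y, log axis) against the summed CPM of 6 sympathetic neuron genes (x, log axis) in each artery, controls in blue and injured arteries in red. Control artery 4 lies at the upper right with 75.5 CPM of Cxcr4 and the other controls at the lower left. The injured arteries lie between 14.6 and 23.6 CPM of Cxcr4, with x from 1.81 to 1034 CPM.

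Cxcl12, the shared ligand, rose from 121 ± 24.0 to 339 ± 81.8 CPM (SD, n = 4), with a log2 fold change of 1.48 (SE 0.23, edgeR adjusted p = 0.00413). The injured arteries had 419.6, 379, 230.1 and 328 CPM and the controls had 131, 134, 135.5 and 85.6 CPM, without overlap. The log2 ratio of Ackr3 to Cxcr4 was 7.68, 6.23, 5.94 and -0.04 in control arteries 1 to 4 and 2.21, 1.08, 1.32 and 1.80 in the injured arteries. The difference was -3.35 (exact permutation test, p = 0.143, two-sided) over all arteries and -5.02 without control artery 4. In the other 3 controls the ratio was thus higher than in any injured artery, and in control artery 4 it was lower than in any.

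**Figure D3:**
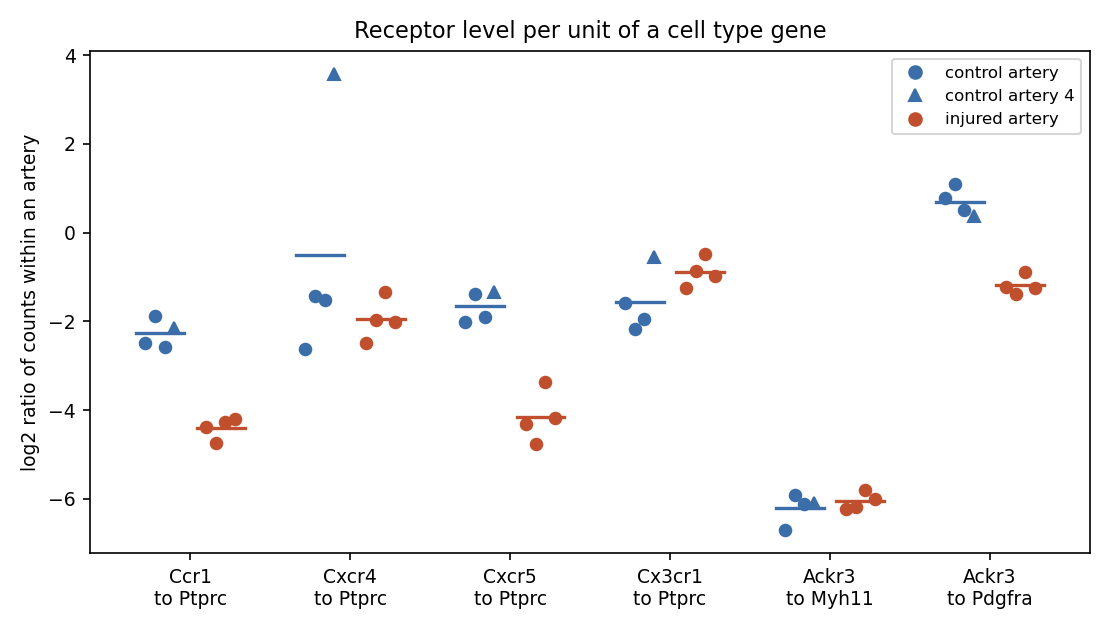
Log2 ratio of a receptor to a cell type gene within each artery (y), for control arteries (blue, control artery 4 as a triangle) and injured arteries (red), with the group mean of 4 as a bar. Ccr1 and Cxcr5 per Ptprc and Ackr3 per Pdgfra were lower in every injured artery, and Ackr3 per Myh11 overlapped, with means of -6.21 and -6.05.

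Cxcr6, Ccr7, Cxcr5 and Cxcr3 are known mainly from lymphocytes and dendritic cells, and all had low counts. Cxcr6, the receptor for CXCL16 on effector T cells and some natural killer cells, had 0, 2, 0 and 0 counts in the controls and 23, 22, 11 and 8 after injury. Every injured artery lay above every control, and the ratio of summed counts was 29 (95% exact interval 7.71 to 245, counting error only). Cxcr6 had too few counts for the filter of the main test, but DESeq2, which filters differently, called it higher (DESeq2 adjusted p = 0.00116), as did edgeR without the filter (edgeR adjusted p = 0.0274). Its log2 ratio to Ptprc was -6.98 ± 1.19 (SD, n = 4) in the controls and -6.12 ± 0.34 (SD, n = 4) after injury (exact permutation test, p = 0.2, two-sided), and the sign of this difference turned with the amount added to the counts. The ligand Cxcl16 was not called, at 41.1 ± 14.2 CPM (SD, n = 4) and 66.0 ± 11.98 CPM (SD, n = 4), although every injured artery was above every control (log2 fold change 0.68, edgeR adjusted p = 0.13).

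Ccr7, which guides dendritic cells and naive T cells to lymphoid tissue, had 0, 4, 1 and 2 counts in the controls and 29, 9, 25 and 11 after injury. The groups did not overlap, and the ratio of summed counts was 9.59 (95% exact interval 4.43 to 24.7, counting error only). The log2 fold change was 3.11 (SE 0.71, edgeR adjusted p = 0.021). The call was lost without control artery 3 (edgeR adjusted p = 0.0689) and without injured artery 4 (edgeR adjusted p = 0.0533), and without injured artery 1 or 3 the counts no longer passed the filter. Of its ligands, Ccl21 rose (log2 fold change 2.85, edgeR adjusted p = 0.0381) and Ccl19 was not called (log2 fold change -0.28, edgeR adjusted p = 0.691). The log2 ratio of Ccr7 to Ptprc differed by -0.16 between the groups (exact permutation test, p = 0.886, two-sided). Of 4 dendritic cell genes, 2 were called higher (Itgax and Clec9a), beside 8.31% of all genes. Flt3 and Zbtb46 were not called (edgeR adjusted p = 0.106 and 0.435). The summed level of the 4 was 16.6 to 25.2 CPM in the controls and 52.0 to 77.5 CPM after injury. Itgax alone had 0.656 to 1.04 CPM in the controls and 23.8 to 48.5 CPM after injury.

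Cxcr5, the receptor of B cells and follicular helper T cells for CXCL13, had 17, 37, 34 and 35 counts in the controls and 68, 46, 85 and 43 after injury. The groups did not overlap, with 2.26 ± 0.755 CPM (SD, n = 4) and 3.92 ± 0.646 CPM (SD, n = 4), but Cxcr5 was not called (log2 fold change 0.80, SE 0.30, edgeR adjusted p = 0.109). Its ligand Cxcl13 rose from 0.921 ± 1.01 to 11.7 ± 3.40 CPM (SD, n = 4), with log2 fold change 3.64 (edgeR adjusted p = 0.0352). Per Ptprc, Cxcr5 was lower in every injured artery, with a difference of -2.50 (exact permutation test, p = 0.0286, two-sided, 0.0857 after adjustment over the 9 ratios). B cell genes were close to the limit of detection in both groups. Of 7, Cd79a had 0 counts in all arteries, only Blk had enough counts for the test and was not called, and the sum of the 7 was 1.25 to 4.54 CPM in the controls and 3.63 to 4.26 CPM after injury.

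Cxcr3, the receptor of activated T cells for the interferon-induced chemokines, had 0 counts in all 8 arteries. Was, a gene used by most blood cells, and the B cell gene Cd79a were also at exactly 0 in every artery, while Ptprc reached 92.4 CPM. Whether the 0 of Cxcr3 reflects its level or the counting was not tested, so nothing is read from it. Of its ligands, Cxcl9 had a log2 fold change of 2.69 (edgeR adjusted p = 0.0063) and Cxcl10 one of 3.15 (edgeR adjusted p = 0.0105). Cxcl11, which also binds ACKR3, had at most 30 counts in any artery and too few for the test. T cell genes were present, since the summed level of the 8 listed was 1.87 to 11.1 CPM in the controls and 13.8 to 32.6 CPM after injury. Of the 7 tested, 2 were called higher, beside 8.31% of all genes.

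**Figure D4:**
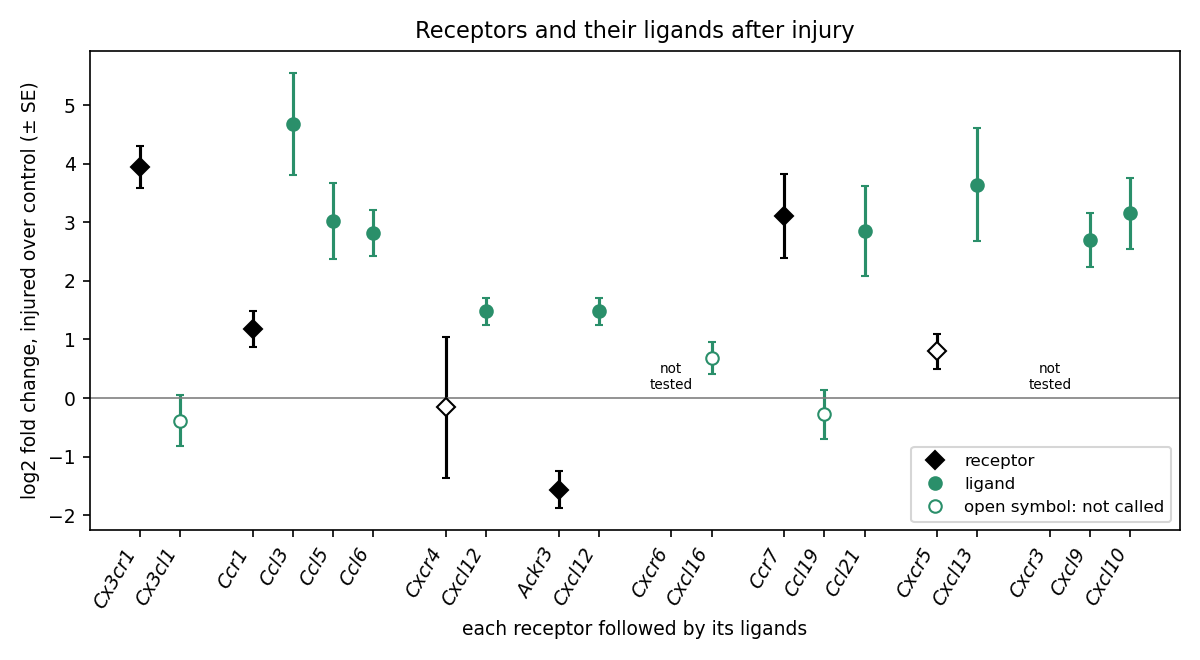
Log2 fold change of injured over control arteries with its standard error (y) for each receptor (diamond) followed by its ligands (circle), open symbols for genes not called. Cxcl12 rose beside an uncalled Cxcr4 and a lower Ackr3, and Cx3cl1, Cxcl16 and Ccl19 were not called. Ccl9, with 1 control count, and Cxcl11, not tested, are not drawn.

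In the whole ligand family, 34 chemokine genes were listed and 22 had enough counts for the test. Of these, 13 were called higher and 0 lower, beside 8.31% and 2.57% of all genes, and the median log2 fold change was 2.31. Ccl3, Ccl4 and Ccl9 had at most 10 counts in all controls together and so reached the test mainly through the injured arteries, where they had to be higher. The share and the median therefore describe the ligands with enough counts and are no support for the family as a whole. With at least 10 counts required in every artery, 10 ligands were tested and 4 were called, each higher. No ligand was called lower by DESeq2 or in any other alternative fit.

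Another 13 chemokine receptors of the rat were examined in the same way, and 6 had enough counts for the test. Ccr6, the receptor for CCL20, was called higher and Ackr4, a scavenger of CCL19 and CCL21, was called lower. Of all genes tested, 8.31% were called higher and 2.57% lower. Ackr4 fell from 36.5 ± 11.6 to 11.4 ± 3.37 CPM (SD, n = 4), with log2 fold change -1.68 (SE 0.29, edgeR adjusted p = 0.00704), without overlap of the groups. The scavengers Ackr3 and Ackr4 were thus both lower, while Ackr2 was not called (log2 fold change -0.03, edgeR adjusted p = 0.958). Ackr1, the chemokine receptor of venular endothelium and red cells, was not called either (log2 fold change -0.23, edgeR adjusted p = 0.811), and its sign turned to positive without control artery 4, which had 57.3 CPM against 11.2 to 18.9 CPM in the other controls. Ccr6 had 0, 0, 1 and 1 counts in the controls and 15, 11, 23 and 9 after injury, a ratio of summed counts of 26.3 (95% exact interval 6.96 to 222, counting error only). Xcr1, a receptor of cross-presenting dendritic cells, had too few counts for the main test, with 0, 0, 0 and 3 counts against 31, 7, 14 and 15, but it was called higher without control artery 4 (edgeR adjusted p = 0.0074), without the filter (edgeR adjusted p = 0.0436) and by DESeq2 (DESeq2 adjusted p = 0.00222). Cxcr2, a receptor of neutrophils, had a log2 fold change of 1.41 and Ccrl2, which presents the chemoattractant chemerin, one of -0.36, and neither was called (edgeR adjusted p = 0.112 and 0.369). Ccr4, Ccr8, Ccr9, Ccr10 and Cxcr1 had at most 12 counts in any artery. The median over the 6 tested was -0.13, and 0.29 without control artery 4. Ccr6 reached the test through its injured arteries alone, where it had to be higher. The number called and this median therefore describe only the receptors with enough counts.

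**Figure D5:**
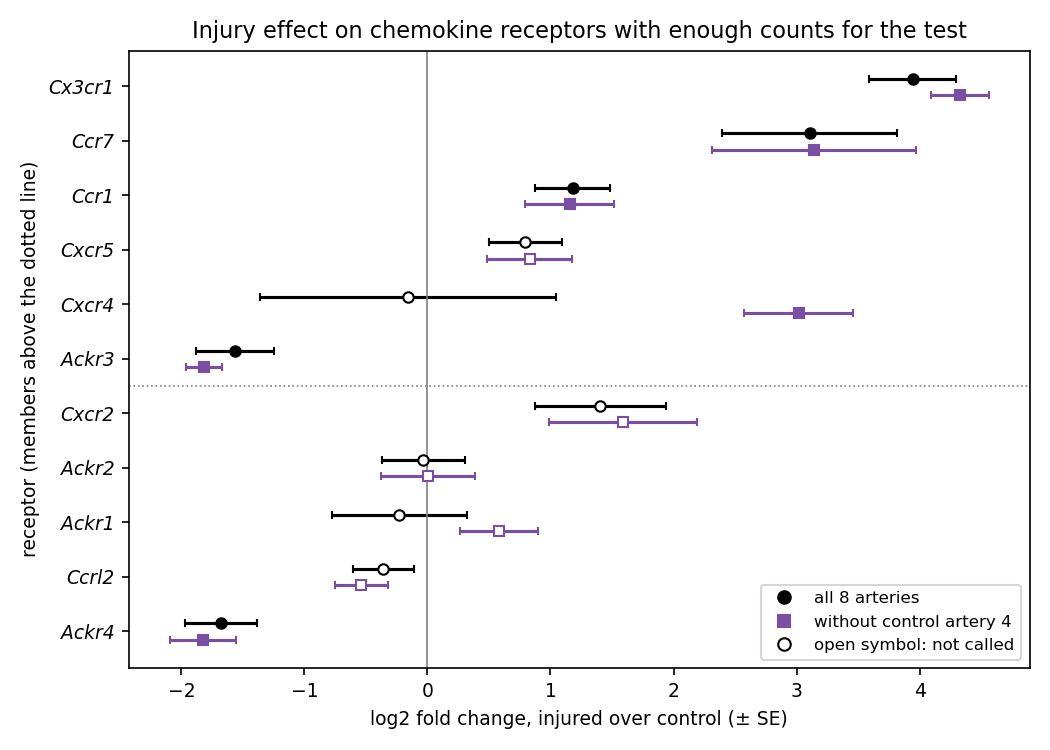
Log2 fold change of injured over control arteries with its standard error (x) for receptors with enough counts for the test (y), over all 8 arteries (black) and without control artery 4 (purple), open symbols for receptors not called. The 6 tested of the 9 receptors lie above the dotted line and others below it, without Ccr6, whose controls had 2 counts in all. Cxcr4 moved from -0.16 to 3.02, and the other calls drawn were the same in both fits.

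Several of these receptors are neighbours on rat chromosome 8, where RefSeq (GRCr8) gives the order Cxcr6, Xcr1, Ccr1, Ccr3 and Ccr1l1. Cxcr6, Xcr1 and Ccr1, described above, had more counts in every injured artery than in any control. Ccr3, a receptor of eosinophils, had 1 count in the controls together and 13, 2, 3 and 1 after injury. The flanking genes Lztfl1 and Fyco1 were not called, with log2 fold changes of -0.47 and -0.61 (edgeR adjusted p = 0.108 and 0.0905). Ccr1 has a close copy in this stretch, Ccr1l1, with at most 1 count in any artery. How reads shared by such copies were counted is not given in the sources used here, so the value of Ccr1 is uncertain in this respect.

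Of 39 genes that act downstream of chemokine receptors, 38 were tested, 13 were called higher and 0 lower, beside 8.31% and 2.57% of all genes, with a median log2 fold change of 0.27. Without control artery 4 the median was 0.60, and 18 were called higher (Grk3, Gng2, Pik3cd, Prkcb and Tiam1 in addition) and 1, Grk5, lower, beside 12.3% and 3.94% of all genes. The genes called over all arteries comprised the regulators of G protein signalling Rgs1, Rgs16 and Rgs18. Among the others were the lipid enzymes and adaptor Plcb2, Pik3cg and Pik3r5, and Rac2 with the regulators of Rac Dock2 and Vav1. The kinases Jak3, Lyn and Fgr and the arrestin Arrb2 completed the list. Rac2, the Rac protein of leukocytes, had a log2 fold change of 3.30, and Arrb2, which binds receptors that a kinase has marked, one of 1.52. Rgs1 had at most 0.288 CPM in any control and 4.13 to 9.08 CPM in the injured arteries. It thus reached the test through its injured arteries alone, where it had to be higher. The number called and the median therefore describe only the downstream genes with enough counts. The widely used subunits Gnai2 and Gnb2 were not called, with log2 fold changes of -0.17 and -0.06. Grk5, a kinase that marks active receptors, had a log2 fold change of -0.92 (edgeR adjusted p = 0.00652) but did not pass the fold change criterion over all arteries. Control artery 4 had 256 CPM of the receptor kinase Grk3 against at most 3.33 CPM in the other controls.

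Among genes with the pattern most like each of the remaining receptors over the 8 arteries, Casp1, an inflammatory protease, was nearest to Ccr1 (root mean square difference 0.125, median over all genes 0.778), followed by Gen1 (0.172). Ncf4, a subunit of the phagocyte oxidase, was next to the unnamed gene LOC103691037 for Cx3cr1 (0.262 and 0.241, median 2.06). For Ccr7 they were Il18r1 (0.303) and Cxcl14 (0.335, median 1.35), and for Cxcr5 they were Slco2b1 (0.157) and Cdc45 (0.183, median 0.67). This likeness describes these arteries and was not tested.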

How the data were processed

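mRNA was sequenced from 4 injured and 4 control carotid arteries. The authors deposited raw counts of reads per gene without normalization, and per the labels HISAT2 2.0.4 was used. The counting tool, strand setting and genome build are not given in the sources used here. Counts were read without change, and each column was matched to its artery through the labels. In edgeR 4.0.16 (R 4.3.3), filterByExpr retained 14359 of 37209 genes. The groups were compared by the quasi-likelihood test with TMM scaling and no covariate. The thresholds were an adjusted p under 0.05 and a fold change above 2. Log2 CPM for likeness used a prior count of 2. Ratios within an artery used counts plus 0.5. Exact intervals have a confidence level of 95%. The edgeR test, with and without the replicate block, and DESeq2 were checked on simulated counts. The exact permutation test was checked on a case with a known answer. Alternatives were DESeq2 1.42.0, RLE factors, library totals only, no filter, at least 10 counts in every artery, the replicate block, each artery left out and the adjusted p alone. A fit without control artery 4 and injured artery 3 was added after seeing the data.

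The receptors and gene lists were chosen with earlier results of these data known. Named were the 9 receptors, called and abundant other receptors, the ligands of the 9, called downstream genes, the 2 genes most like each receptor, and marker genes. Ccr3, Ccr1l1, Lztfl1, Fyco1, Xcr1, Gnai2, Gnb2, Grk3, Grk5, Gng2, Pik3cd, Prkcb, Tiam1, Was, Dpt, Pi16, Col1a1, Lum, Cxcr2, Ccrl2 and Blk were named after their values were seen. Coro1a, Cd48, Tagln, Itgax, Clec9a, Flt3 and Zbtb46 were also named after their values were seen. Of 186 genes in the lists, 184 had a row, 4 of them by an older symbol. A few genes of these lists are not reported here. Promoters came from RefSeq (GRCr8), whose coordinates refer to that assembly alone.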

Additional observations from a re-analysis of the deposited data

Results flagged for a closer look

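Over receptors and ligands, 62 groups of 4 arteries were examined with Dixon's criterion, which divides the distance of an extreme artery from its neighbour by the range of the group. In 6 groups an artery stood apart at the 95% level. Chance would give about 3.1 for normally distributed values, which CPM with counts of 0 are not, so nothing is read from this number. Cxcr4 in control artery 4 was 75.5 CPM against 3.05 CPM in the nearest control, a Dixon ratio of 0.97. Cxcl12, the ligand of CXCR4, stood apart in the same artery in the other direction, at 85.6 CPM against 131 CPM (0.904). Cx3cr1 in injured artery 2 was 50.9 CPM against 35.4 CPM (0.854), and the injured group remained above every control without it. Ccl6 in injured artery 1 was 44.3 CPM against 23.2 CPM (0.932). Cxcr6 in control artery 2 was 0.164 CPM, which is 2 counts, and Ccl9 in control artery 3 was 0.0693 CPM, which is 1 count, where the other controls had 0. With 0 in the other controls the Dixon ratio is 1 whatever the count, so nothing is read from these flags.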

How the results depend on the processing

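The number of all genes called was 1562, against 1007 with at least 10 counts in every artery, 2468 by the adjusted p alone, 1142 to 2398 with each artery left out (2398 without control artery 4) and 2473 without control artery 4 and injured artery 3, which was chosen after seeing the data. Of the receptors, 4 were called, against 2 to 6 with each artery left out (2 without injured artery 1, 6 without control artery 4). Of the ligands, 13 were called, against 4 with at least 10 counts in every artery, where 10 were tested, and 8 to 15 with each artery left out (8 without injured artery 4). Of the other receptors, 2 were called, against 1 (of 4 tested) with at least 10 counts in every artery and 2 to 3 with each artery left out. The log2 fold change of Cxcr4, -0.16 over all arteries, ranged from -0.56 to 3.02 with each artery left out, 3.02 being the value without control artery 4. It was 2.99 without control artery 4 and injured artery 3, and 2.21 with the replicate block (adjusted p = 0.324 in edgeR's test). With 2 added to each count the difference in the log2 ratio of Cxcr6 to Ptprc was -0.64 in place of 0.86.

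The labels number the arteries 1 to 4 in both groups, but the numbers were not shown to pair them, since deviations of same-numbered arteries correlated at 0.301, 0.45, -0.52 and -0.416 and only control artery 2 correlated best with its own number. With the replicate block 1187 of all genes and 1 receptor, Cx3cr1, were called (adjusted p = 0.00769), while Ccr1, Ccr7 and Ackr3 had an adjusted p of 0.0966, 0.103 and 0.054 in edgeR's test. Sign flips of 4 pairs cannot go below p = 0.125, so the block gives the ratios no exact test. Library totals only moved the median of all genes by 0.175 on the log2 scale, and the 6 receptors tested kept their directions. Ccr7 and Cxcr6 rest on at most 29 counts in any artery. The log2 ratio of Ccr2 to Cx3cr1 and that of Cxcr3 to Ptprc were not computed. The cause was not tested.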
